A study of Mesocricetus auratus with 11 samples.

Results

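KB708184.1 is 1 scaffold (an assembled stretch of sequence, named in the files without a chromosome) of the Syrian hamster genome, Mesocricetus auratus. All CpGs listed on it were taken, with both strands of a CpG summed. This gave 17135 of the 2010882 CpGs listed in at least 1 library, those of the mitochondrial sequence included. The CpGs ran from base 149 to base 12099047. They were divided at 6.5 Mb into a lower part with 3727 CpGs, up to base 6475957, and an upper part with 13408 CpGs, from base 6510225. The scaffold and its border were selected on read share, because the share of sequencing reads that fell on it differed between MT2 cells and primary cells along only some of its length. Read share and methylation levels in MT2 against primary cells are therefore given as descriptions without a test. For that contrast, calls of single tiles and windows are printed only beside the share called in the genome, and nothing is read from them. Tests that are read were made between 5aCdR and vehicle.

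The assay was reduced representation bisulfite sequencing, which reads CpG methylation in fragments cut out around CpG-rich sites, and 11 libraries were made with it. Primary cells were the normal reference: a mixed population of ectodermal and mesodermal origin from 4 female fetuses of gestation day 13.5, untreated, cultured for less than 3 days and 1 passage. MT2 is a female line grown from a single morphologically transformed colony after benzo[a]pyrene (5 µg/mL), which had bypassed senescence and was used near passage 28. It is 1 line, and its wells came from 1 thawed stock and are technical replicates per the design text, so a p-value measures the spread between wells. Vehicle wells received 0.05% DMSO for 48 h (n = 4), and 5aCdR wells received 5 µM 5-aza-2'-deoxycytidine for 48 h (n = 3; the protocol names 4 plates, and the other was not analysed here). The files hold no expression, so the identity of the cells was not checked against marker genes.

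In vertebrate genomes most cytosines that precede a guanine carry a methyl group, whereas dense clusters of CpGs, the CpG islands at many promoters, mostly lack it. The restriction step of reduced representation sequencing enriches CpG-rich fragments, so CpG-dense sequence takes more reads per base than CpG-poor sequence. 5aCdR is incorporated into DNA during replication and traps the maintenance DNA methyltransferase, so that newly made strands lose methylation. The share of reads that a region takes is known to depend on the amount of its DNA in the cells, on which fragments pass size selection and amplification, and on how well reads map.

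The parts differed in composition. The lower part held 57.3 listed CpGs per 100 kb and the upper part 239. The median number of covered CpGs within 250 bp of a CpG was 8 in the lower part, 17 in the upper part and 10 in the rest of the genome. Common CpGs, those read 10 or more times in each of the 11 libraries, numbered 145 in the lower part and 975 in the upper part, of 81289 in the nuclear scaffolds. Library totals were 17804710 to 37543924 reads over CpGs for vehicle, 36041721 to 46082669 for 5aCdR and 19311222 to 37387167 for primary cells.

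The upper part took a larger share of reads in MT2 than in primary cells, and the lower part did not. The upper part held 1.11%, 1.11%, 1.17% and 1.04% of the listed CpG reads in the 4 vehicle libraries and 1.09%, 1.11% and 1.12% in the 3 5aCdR libraries, against 0.788%, 0.774%, 0.767% and 0.786% in the 4 primary libraries. All 7 MT2 libraries lay above all 4 primary libraries. The group means were 1.11% ± 0.0535 (SD, n = 4) with vehicle, 1.11% ± 0.0166 (n = 3) with 5aCdR and 0.779% ± 0.00997 (n = 4) in primary cells, a 1.42-fold ratio for either MT2 group (log2 ratio 0.51). The lower part held 0.175%, 0.171%, 0.175% and 0.173% with vehicle, 0.180%, 0.179% and 0.174% with 5aCdR, and 0.183%, 0.173%, 0.185% and 0.173% in primary cells. The 3 groups overlapped there, and the ratio to primary cells was 0.972-fold with vehicle and 0.997-fold with 5aCdR.

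**Figure D1:**
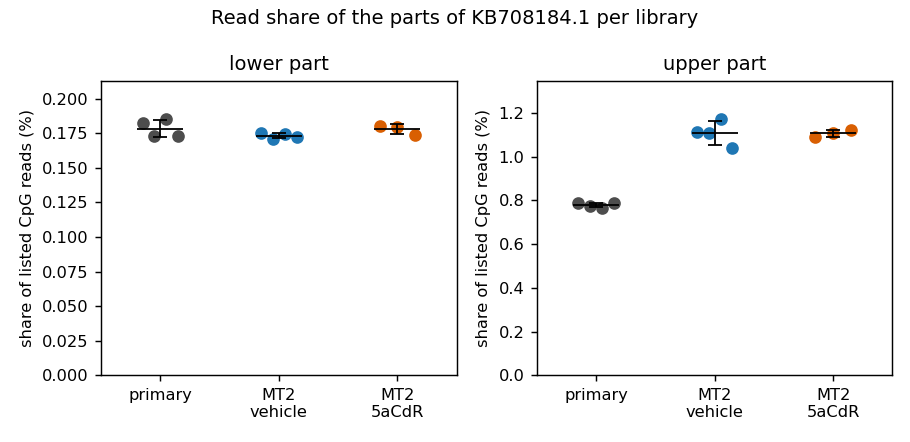
Share of listed CpG reads (%) on the lower part (left) and upper part (right) of KB708184.1 in each library (points), with group mean and SD (bars; n = 4, 4 and 3). In the upper part the 7 MT2 libraries sit between 1.04% and 1.17% and the 4 primary libraries between 0.767% and 0.788%, whereas in the lower part the groups overlap.

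Depth differed between libraries, and a position enters a file only from 10 reads on a strand upward. Among libraries of like depth, the upper part was 1.46-fold higher in the 2 vehicle libraries of 17804710 and 18209189 reads than in the 2 primary libraries of 19311222 and 20405768 reads. It was 1.37-fold higher in the 2 vehicle libraries of 34141649 and 37543924 reads than in the primary library of 37387167 reads. The corresponding ratios of the lower part were 0.972 and 1.004. The share of listed CpGs that lay on the upper part was 0.868% ± 0.0538 with vehicle and 0.680% ± 0.0118 in primary cells. That is a 1.28-fold ratio, against 0.997-fold in the lower part. Whether a CpG is listed depends on its reads through the 10-read minimum, so this count is not separate from the read share. At common CpGs, which have the same positions in every library, the upper part was 1.27-fold higher with vehicle and 1.39-fold higher with 5aCdR. The size of the ratio thus differed with the set of CpGs, and the part of the 10-read minimum in this was not tested. At common CpGs the upper part with 5aCdR exceeded that with vehicle by 0.13 on the log2 scale. Without the 1 kb tile at bases 10430001 to 10431000 this difference was 0.0003. The ratios to primary cells at common CpGs were not computed without that tile.

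The ratio was similar in CpG-poor and CpG-dense sequence. With vehicle, CpGs of the upper part that had 1 to 4, 5 to 9, 10 to 19 and 20 or more covered CpGs within 250 bp showed ratios to primary cells of 1.43, 1.44, 1.33 and 1.48. The corresponding ratios in the rest of the genome were 1.04, 1.01, 0.984 and 0.960. Those of the lower part were 0.977, 1.06, 0.828 and 0.961. The class of 10 to 19 in the lower part had 477 CpGs, and its vehicle libraries (0.0155% to 0.0203%) lay just below its primary libraries (0.0206% to 0.0252%).

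The ratio was also seen at methylated and unmethylated CpGs. At common CpGs of the upper part with a level in primary cells below 20%, from 20% to 80% and above 80%, the vehicle ratio was 1.32, 1.25 and 1.20 and the 5aCdR ratio 1.32, 1.497 and 1.28. The 1 kb tile at bases 10430001 to 10431000, at 54.4% in primary cells, held 13.0% of all reads of the upper part. Its own ratios were 1.20 with vehicle and 1.39 with 5aCdR, and the class from 20% to 80% was not computed without it. Of the 975 common CpGs of the upper part taken singly, 789 (80.9%) had a higher mean read share with vehicle than in primary cells, with a median ratio of 1.30. The lower part had 47 of 145 higher (32.4%), with a median of 0.877, and over all common CpGs 47.3%, with a median of 0.975. Every vehicle library exceeded every primary library at 76 of the 975 and 2 of the 145, where the background over all common CpGs was 1.98%.

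The step was placed with windows of 100 kb that held at least 10 listed CpGs, of which the lower part had 44 and the upper part 56. With vehicle, 55 of the 56 upper windows had a ratio above 1, with a median log2 ratio of 0.53, and the lower windows were split into 22 above and 22 below, with a median of -0.01. The median over the 19213 windows of other scaffolds was 0.00. All vehicle libraries lay above all primary libraries in 33 upper windows (58.9%) and in 0 lower windows, where the background over all 19313 windows was 3.01%. For 5aCdR the counts were 39 and 1, against a background of 4.29%. The MT2 groups share the primary libraries, so these counts are not independent of each other.

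**Figure D2:**
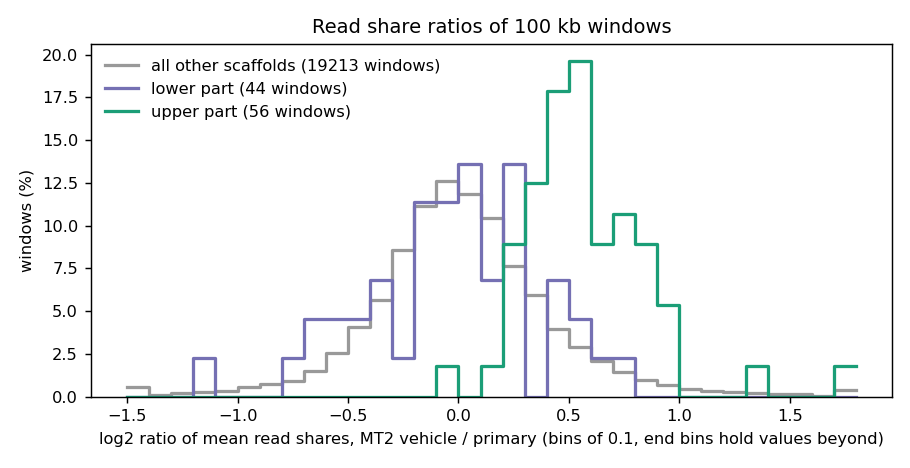
Distribution of the log2 ratio of mean read share, MT2 vehicle over primary, in 100 kb windows (x axis, bins of 0.1) as a percentage of the windows of each set (y axis) for the lower part (44 windows), the upper part (56 windows) and all other scaffolds (19213 windows). The lower part lies over the other scaffolds, around 0, and the upper part is centred near 0.53.

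A least squares fit of 2 levels to the window log2 ratios put the step at 6.3 Mb with vehicle, with a mean log2 ratio of -0.06 over the 42 windows before it and 0.59 over the 58 windows after it. With 5aCdR in place of vehicle it came at 6.2 Mb, and leaving out each library in turn gave 6.2 to 6.3 Mb. Windows of 50 kb gave 6.05 Mb and windows of 250 kb 6.25 Mb. With common CpGs the first window after the step began at 6.5 Mb, but the last window with enough CpGs before it ended at 1.8 Mb, so that this setting leaves the interval between them empty. The fits thus place the step 0.2 Mb or more before the border except with common CpGs, and no fit resolved a single position.

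Windows next to the step held few CpGs and few reads. The last window before it, bases 6200001 to 6300000 with 22 CpGs, had 10.4 ± 3.66 RPM (reads per 1000000 listed reads of the library; SD) with vehicle and 9.35 ± 1.32 in primary cells, a ratio of 1.11. The first window after it, bases 6300001 to 6400000 with 20 CpGs, had 8.95 ± 1.98 and 5.69 ± 1.72 RPM, a ratio of 1.57, and the groups overlapped in both windows. Just inside the lower part, bases 6400001 to 6500000 with 180 CpGs had 126, 101, 87.1 and 86.5 RPM with vehicle and 57.9, 28.4, 117 and 61.5 in primary cells, a ratio of 1.51. Primary replicate 3 lay above 3 of the 4 vehicle libraries there. Just inside the upper part, bases 6500001 to 6600000 with 94 CpGs had 51.2, 53.1, 43.1 and 73.3 RPM with vehicle and 29.7, 42.4, 22.5 and 35.5 in primary cells, a ratio of 1.70 without overlap.

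**Figure D3:**
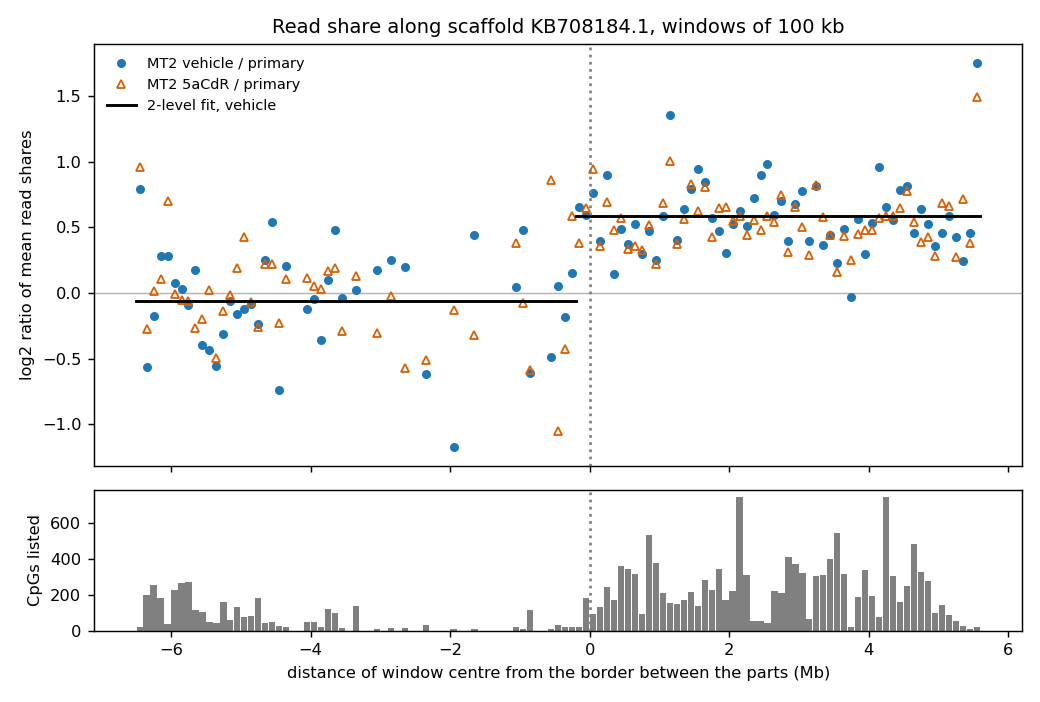
Top: log2 ratio of mean read share in 100 kb windows along KB708184.1, by distance of the window centre from the border between the parts (Mb), for MT2 vehicle (filled circles) and MT2 5aCdR (open triangles) over primary cells, with the 2-level fit for vehicle (black lines at -0.06 and 0.59). Bottom: number of CpGs listed per window, which is low over the stretch of about 3 Mb before the step where the ratios scatter most.

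Over longer stretches the read share ratio changed little within the upper part. With vehicle it was 1.47 from 6.5 to 7 Mb, 1.42 from 7 to 8 Mb, 1.52 from 8 to 9 Mb, 1.503 from 9 to 10 Mb, 1.32 from 10 to 11 Mb and 1.47 from 11 to 12.1 Mb. The lowest vehicle library lay above the highest primary library in each of these 6 stretches. The 5aCdR ratios over the same stretches were 1.51, 1.38, 1.4995, 1.47, 1.36 and 1.43.

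Stretch ratios of the lower part scattered around 1. They were 0.961 from 0 to 1 Mb, 0.886 from 1 to 2 Mb, 1.03 from 2 to 3.3 Mb and 1.09 from 3.3 to 5.5 Mb, the last with only 193 CpGs. From 5.5 to 6 Mb (147 CpGs) the ratio was 0.704, with 44.5 to 59.5 RPM with vehicle and 51.8 to 101 in primary cells. From 6 to 6.3 Mb (76 CpGs) it was 0.998. The stretch from 6.3 to 6.5 Mb (200 CpGs) had a ratio of 1.52, as in the upper part, although its primary libraries ranged from 34.6 to 121 RPM and overlapped the vehicle libraries at 95.2 to 133.

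The extreme windows were thinly covered. In the upper part the highest ratio, 3.37, was at bases 12000001 to 12100000, with 21 CpGs and 16.4 ± 4.77 RPM with vehicle against 4.85 ± 2.15 in primary cells. The lowest, 0.980, was at bases 10200001 to 10300000, with 20 CpGs and 6.74 against 6.87 RPM. The highest ratio of the lower part, 1.73, was at bases 1 to 100000 (23 CpGs; groups overlapping) and the lowest, 0.443, was at bases 4500001 to 4600000 (12 CpGs; 3.02 against 6.81 RPM without overlap).

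A single tile carried much of the depth of the upper part. Bases 10430001 to 10431000, with 10 listed CpGs, held 13.0% of all reads of the upper part. Its share of listed reads was 0.131% ± 0.0181 with vehicle, 0.152% ± 0.00821 with 5aCdR and 0.109% ± 0.00780 in primary cells, ratios to primary cells of 1.20 and 1.39. Without it the log2 ratio of the upper part was 0.55 with vehicle and 0.51 with 5aCdR.

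Among the 175 scaffolds with at least 3000 listed CpGs, KB708184.1 as a whole had the second highest vehicle to primary ratio, 1.34. The highest was KB708147.1, with 1.47, and the other 173 lay between 0.897 and 1.102. The upper part alone, at 1.42, was near KB708147.1, where 193 of 195 windows of 100 kb had a ratio above 1 with a median log2 ratio of 0.54. These values rank the scaffolds and were not tested.

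5aCdR left the read share of both parts without a detectable difference from vehicle. The mean log2 share of 5aCdR minus vehicle was -0.00 in the upper part (exact two-sided permutation test over 35 splits, p = 0.943, adjusted over 3 tests 0.943, interval -0.19 to 0.21) and 0.04 in the lower part (exact permutation p = 0.143, adjusted 0.429, interval -0.01 to 0.09). The difference between the parts was -0.04 (exact permutation p = 0.4, adjusted 0.6, interval -0.20 to 0.16). The smallest p that this design allows is 0.0286. At common CpGs the upper part was higher with 5aCdR by 0.13 on the log2 scale (exact permutation p = 0.0286), and at common CpGs without the tile at bases 10430001 to 10431000 the difference was 0.0003 (p = 1 in the same exact test). In 100 kb windows the 5aCdR and vehicle libraries did not overlap in 1 of 56 upper and 2 of 44 lower windows, where the background was 7.14%.

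Methylation fell after 5aCdR in both parts. At the 975 common CpGs of the upper part, the mean level was 23.2%, 23.1%, 22.9% and 22.9% in the vehicle libraries and 19.7%, 19.1% and 19.8% in the 5aCdR libraries. The change was -3.46 percentage points (interval -4.05 to -3.06), and all 3 5aCdR libraries lay below all 4 vehicle libraries (exact two-sided permutation p = 0.0286, the smallest possible, adjusted over the parts 0.0286). At the 145 common CpGs of the lower part it was 31.4%, 30.9%, 32.3% and 30.2% with vehicle and 27.1%, 26.9% and 22.4% with 5aCdR. The change was -5.69 points (interval -9.87 to -3.02, exact permutation p = 0.0286, adjusted 0.0286), again without overlap, and 5aCdR replicate 3 stood apart from the other two. With a minimum of 20 reads, which left 330 CpGs of the upper part, its change was -3.67 points and the exact permutation p rose to 0.0571.

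**Figure D4:**
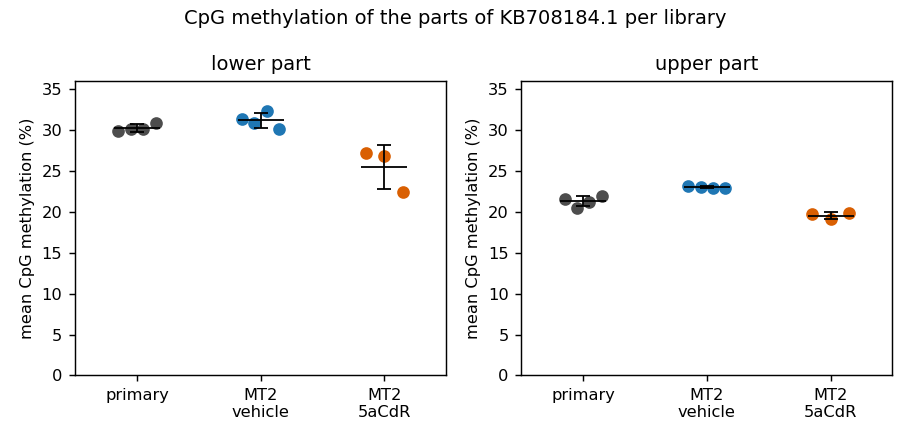
Mean methylation (%) of common CpGs in the lower part (left, 145 CpGs) and upper part (right, 975 CpGs) of KB708184.1 in each library (points), with group mean and SD (bars; n = 4, 4 and 3). The 5aCdR libraries lie below the vehicle libraries in both parts, and the 5aCdR library at 22.4% in the lower part stands apart.

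The relative fall was -15.0% of the vehicle level in the upper part and -18.3% in the lower part, beside -12.9% in the rest of the genome, where the level fell from 38.3% ± 0.0688 to 33.4% ± 0.207. Because the parts differ in CpG density and level, they were compared within cells of density and of level in primary cells. Of the 12 cells 8 had at least 3 CpGs in both parts, with 907 CpGs of the upper and 143 of the lower part. So matched, the upper part changed by -4.14 points and the lower part by -5.72, a difference of 1.57 points (p = 0.429 by exact permutation, above the threshold, interval -1.22 to 6.05). Without 5aCdR replicate 3 the difference was -0.0841 points.

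Against the rest of the genome matched in the same way, a comparison added after the data were seen, the upper part changed by -0.394 points more (exact permutation p = 0.0571, adjusted over 2 tests 0.114, interval -0.80 to 0.00) and the lower part by -1.97 points more (p = 0.114 in the same exact test, adjusted 0.114, interval -5.77 to 0.55). Neither passed the test. Without 5aCdR replicate 3 the lower value was -0.522 points, and without 5aCdR replicate 2 the upper value was -0.225. A p above the threshold does not show that the parts lost methylation to the same extent as the rest, and the intervals give the sizes that remain possible.

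In percentage points the change was larger at CpGs with a higher level in primary cells. Relative to the vehicle level the order was the reverse in the upper part, and in the lower part it was not resolved. In the upper part, CpGs with a level in primary cells above 80% changed from 84.6% ± 1.39 to 75.3% ± 1.96, those from 20% to 80% changed from 46.7% ± 0.904 to 38.8% ± 1.97, and those below 20% changed from 6.06% ± 0.352 to 4.87% ± 0.543. Relative to vehicle these changes were -11.0%, -16.8% and -19.7%. The relative changes of the same classes were -17.6%, -20.3% and -6.60% in the lower part and -11.1%, -14.5% and -15.5% in the rest of the genome. These classes were not tested against each other. In the lower part the class below 20% (82 CpGs) went from 4.36% ± 1.35 with vehicle to 4.07% ± 0.634 with 5aCdR. Its vehicle and 5aCdR libraries overlapped, so its place in the order of the lower part is not read. In CpG-dense sequence, with 20 or more covered CpGs within 250 bp, the level of the upper part was 4.26% ± 0.580 with vehicle and 3.21% ± 0.474 with 5aCdR, a relative change of -24.8%. The relative change of this class was -21.6% in the lower part (55 CpGs), from 1.62% ± 0.623 to 1.27% ± 0.811, and -14.6% in the rest of the genome. In this class the vehicle and 5aCdR libraries overlapped in both parts, but not in the rest of the genome. The share of common CpGs above 80% methylation fell from 14.6% ± 1.75 to 8.55% ± 0.388 in the upper part, and from 21.7% ± 2.29 to 11.7% ± 3.45 in the lower part. In the rest of the genome it fell from 26.2% ± 1.82 to 16.7% ± 0.264. Of the single common CpGs, 434 of 975 in the upper part were lower and 259 higher with 5aCdR by their group means, and 53 fell by at least 25 points whereas 7 rose by as much. As shares of the upper part these were 44.5% lower, 26.6% higher, 5.44% falling and 0.718% rising by 25 points. Of the lower part's CpGs, 75 of 145 were lower and 21 higher, with 13 falls and 1 rise of at least 25 points, or 51.7%, 14.5%, 8.97% and 0.690%. The same shares over common CpGs of other scaffolds were 51.0%, 28.0%, 10.2% and 2.24%.

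**Figure D5:**
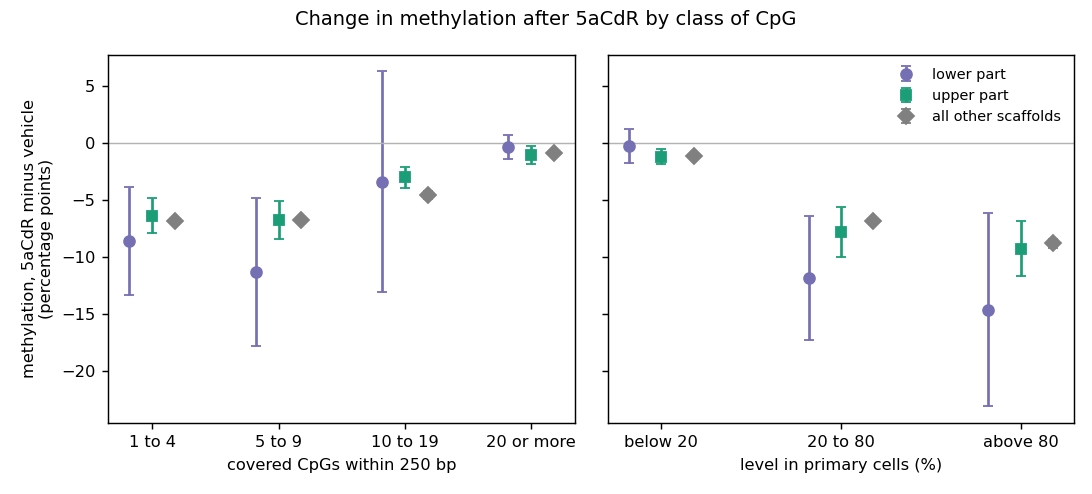
Change in mean methylation, 5aCdR minus vehicle (percentage points), by number of covered CpGs within 250 bp (left) and by level in primary cells (right) for the lower part, the upper part and all other scaffolds. Bars are the root of the summed squares of the 2 groups' SDs. The change is near 0 in dense and unmethylated classes. Above 80% it is -9.30 points in the upper part and -14.6 points in the lower part (20 CpGs).

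Single regions were tested across the whole genome with a quasi-binomial model of methylated and unmethylated reads and Benjamini-Hochberg adjustment over all units. Of the 100 kb windows with enough CpGs, 4 of 46 in the upper part and 1 of 8 in the lower part were called, all of them falls, where the background over 5164 windows was 5.79%, of which 5.77% for falls. The libraries of the groups did not overlap in 13 of the 46 and 2 of the 8, against a background of 18.1%. Of 1 kb tiles, 1 of 263 in the upper part was called and 0 of 23 in the lower part, against 0.799%, and 0.783% for falls. The groups did not overlap in 22 of the 263 and 1 of the 23, against 8.81%. At an unadjusted p below 0.05 there were 37 of 263 tiles in the upper part and 2 of 23 in the lower part, beside 2258 of 18352 on other scaffolds. The group mean was lower with 5aCdR in 39 of the 46 upper windows (84.8%) and in 80.1% of the windows of other scaffolds, with a median change of -2.88 points beside -4.48 over the windows of other scaffolds.

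In the upper part, bases 7100001 to 7200000 (44 CpGs) had levels of 59.5%, 66.0%, 66.9% and 62.2% with vehicle and 51.6%, 46.3% and 48.6% with 5aCdR. The change was -14.8 points (quasi-binomial adjusted p = 0.00905), without overlap. Bases 10300001 to 10400000 (26 CpGs) had 83.1%, 87.6%, 68.3% and 71.7% with vehicle and 68.1%, 64.7% and 60.6% with 5aCdR, a change of -13.2 points (quasi-binomial adjusted p = 0.0401). The lowest vehicle library and the highest 5aCdR library of that window were nearly level, and the call was lost on leaving out 5aCdR replicate 2 or 3, or vehicle replicate 1 or 2. With a minimum of 20 reads its change was -8.81 points (quasi-binomial adjusted p = 0.224), and without the deepest 0.1% of CpGs it was -13.2 points (adjusted p = 0.0862 in the quasi-binomial test).

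Bases 9700001 to 9800000 (48 CpGs) had 31.5%, 31.2%, 23.1% and 38.0% with vehicle and 20.4%, 21.2% and 21.5% with 5aCdR, a change of -9.88 points (quasi-binomial adjusted p = 0.0403). That call was lost on leaving out any 1 of the 3 5aCdR libraries or vehicle replicate 1, 2 or 4. Bases 10400001 to 10500000 (44 CpGs) changed by only -2.56 points, from 26.05% ± 0.895 to 23.5% ± 0.190 (quasi-binomial adjusted p = 0.0110). This window contains the deep tile at bases 10430001 to 10431000, and without the deepest 0.1% of CpGs in the genome its change was -2.28 points and its adjusted p 0.386.

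The deep tile itself was the called tile of the upper part. Its 6 common CpGs had levels of 27.4%, 25.9%, 25.6% and 27.4% with vehicle and 24.0%, 23.8% and 24.0% with 5aCdR, a change of -2.66 points (quasi-binomial adjusted p = 0.0217). The difference is small beside those of other named regions, and the libraries did not overlap. The call was lost on leaving out any 1 of the 3 5aCdR libraries or vehicle replicate 1 or 4, with adjusted p between 0.0628 and 0.126.

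In the lower part, bases 700001 to 800000 (22 CpGs) had levels of 56.7%, 55.4%, 57.4% and 49.4% with vehicle and 38.7%, 39.6% and 34.2% with 5aCdR, a change of -17.2 points (quasi-binomial adjusted p = 0.0166). Without the deepest 0.1% of CpGs the change was -6.02 points and the quasi-binomial adjusted p 0.391. In this window that setting left out 1 CpG, in the tile at bases 772001 to 773000. The size of this fall thus rested largely on 1 deeply read CpG. No tile of the lower part was called. The tile of the lower part whose libraries did not overlap, bases 4233001 to 4234000 (3 CpGs), had 58.6%, 49.5%, 68.2% and 49.1% with vehicle and 45.2%, 27.9% and 30.5% with 5aCdR (quasi-binomial adjusted p = 0.221).

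Methylation of MT2 vehicle against primary cells is given as a description. At common CpGs the upper part had 23.0% ± 0.118 with vehicle and 21.3% ± 0.589 in primary cells (21.6%, 20.5%, 21.3% and 21.9%), a difference of 1.70 points, and the lower part 31.2% ± 0.896 and 30.2% ± 0.462, a difference of 0.944 points. In the rest of the genome vehicle was 3.07 points below primary cells, at 38.3% and 41.4% ± 0.198. The vehicle minus primary difference was also set against that of the rest of the genome, matched on density and on level in primary cells. It was 1.26 points higher in the upper part and 2.26 points higher in the lower part. At CpGs of KB708147.1 matched to the upper part, vehicle was 2.66 points above primary cells, beside 1.70 points in the upper part. Matched to each other, the parts differed in this contrast by -0.656 points, upper minus lower. Without vehicle replicate 3 this difference was -0.271 points and that of the lower part from primary cells 0.569. With at least 20 reads the lower part, at 49 CpGs, was -2.07 points from primary cells, and the matched difference between the parts was 3.20 points.

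Weighting by reads turned the direction in the upper part. With reads pooled over its common CpGs, vehicle was -8.88 points from primary cells. Without the deep tile at bases 10430001 to 10431000 the pooled difference was 1.59 points. That tile had 54.6%, 54.3%, 55.05% and 53.8% methylation in the 4 primary libraries, 26.6% ± 0.964 with vehicle and 23.9% ± 0.127 with 5aCdR, so the groups stood far apart while the spread within each was under 1 point.

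Levels moved both ways along the upper part between primary and vehicle cells. CpGs with a level in primary cells below 20% had a mean of 2.11% ± 0.550 in primary cells and 6.06% ± 0.352 with vehicle, and those above 80% had 92.4% ± 1.34 and 84.6% ± 1.39. Classes set by the level in primary cells move toward the middle in any other group by construction, and the same classes in the rest of the genome went from 2.51% to 7.36% and from 92.3% to 79.3%. By group means 403 of the 975 single CpGs of the upper part were higher with vehicle (41.3%) and 260 lower (26.7%), beside 36.9% higher and 40.7% lower on other scaffolds.

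Of the 1 kb tiles tested between vehicle and primary cells, 26 of 123 in the upper part (20 higher and 6 lower with vehicle) and 3 of 13 in the lower part (2 higher and 1 lower) were called, where the background over 10177 tiles was 20.8%, or 8.54% higher and 12.2% lower. Of 100 kb windows, added after the data were seen, 4 of 33 and 1 of 4 were called, against 19.2%. Nothing is read from these counts, since the contrast chose the scaffold. The tiles named below had no overlap between libraries.

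Tiles that were lower with vehicle included bases 9028001 to 9029000, with 84.8%, 77.6%, 90.5% and 93.8% in primary cells and 33.7%, 41.4%, 45.7% and 39.4% with vehicle. 5aCdR left this tile at 40.1% ± 7.17, near the vehicle mean of 40.05% ± 4.99. Bases 11006001 to 11007000 had 66.9%, 52.8%, 34.0% and 28.4% in primary cells and 2.54%, 1.19%, 0% and 0% with vehicle. In the lower part, bases 4233001 to 4234000 had 90.7% ± 5.44 in primary cells, 56.4% ± 9.04 with vehicle and 34.5% ± 9.34 with 5aCdR.

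Tiles that were higher with vehicle included bases 7349001 to 7350000, with 14.1%, 25%, 4.02% and 25.4% in primary cells and 52.3%, 50.3%, 55% and 50.6% with vehicle. 5aCdR gave 41.9% ± 1.98 there. Bases 6973001 to 6974000 had 16.5% ± 9.82 in primary cells and 59.9% ± 24.1 with vehicle, with 1 vehicle library at 93.9% and the others at 37.3% to 56.8%. Bases 7395001 to 7396000 had 45.5%, 1.28%, 73.5% and 84.2% in primary cells, the widest spread among the named tiles, and 95.9% ± 3.44 with vehicle. In the lower part, bases 1798001 to 1799000 had 0.868% ± 1.74 in primary cells, 12.3% ± 5.27 with vehicle and 18.1% ± 5.01 with 5aCdR.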

How the data were processed

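Reduced representation bisulfite libraries were made from 100 ng of DNA, per the labels' protocols. The submitters' processing notes name Bismark 0.22.1 with Bowtie2, then methylKit 1.10.0 under R 3.6.1, beside Trim Galore 0.5.0 and bcl2fastq 2.20.0.42, with no order or settings. The genome build and the treatment of PCR duplicates are not given in the sources used here, so reads are not independent molecules and no interval from read counts is given. Coverage in the deposited files is a count of reads per strand of a CpG, and the deposited levels of C and T are given, per the file headers, as a percent of that coverage. Strands with fewer than 10 reads are absent from the deposited files.

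The percent of C multiplied by coverage and rounded gave the methylated reads, and strands were summed. Read share is the reads over CpGs of a region divided by all reads over CpGs of the library, without mitochondrial CpGs (at most 0.189% of reads). A methylation level is the mean over common CpGs (10 or more reads in each of the 11 libraries) unless stated. Group levels were compared by exact two-sided permutation, and intervals hold the differences whose exact p exceeds 0.05. Tiles of 1 kb with at least 3 CpGs and windows of 100 kb with at least 10 CpGs, each CpG with at least 10 reads in every library of both groups, were tested genome-wide with a quasi-binomial model, limma-moderated dispersion not below 1, an F test and Benjamini-Hochberg adjustment, with adjusted p below 0.05 as a call. Python 3.11.15, numpy 2.4.6, scipy 1.17.1, pandas 2.3.3 and limma 3.58.1 were used, and the scripts were tested on simulated data.

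The scaffold, its border and all lists were chosen with earlier results of these data known. Regions named are the windows beside the step and at the border, the extreme windows of each part, called windows and tiles of 5aCdR against vehicle (the lower part has no called tile, so its tile without overlap is given), the called tiles without overlap with the largest fall or rise of vehicle against primary cells, up to 3 per part and direction, and the tile with the most reads. Alternatives were another read minimum, common CpGs only, no deepest CpGs, 1 strand, other windows, pooled reads, no matching, the fitted step as border, omission of each library and a replicate block. Comparisons with the rest of the genome, like-depth ratios, results without the deep tile, CpGs with 20 reads for read share and CpGs listed in 1 group were added after the data were seen. No gene or sequence is given, since no annotation of the files' build was used here.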

Additional observations from a re-analysis of the deposited data

Results flagged for a closer look

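In groups of 4 libraries, the read share and mean methylation of each part and the levels of tiles and windows were searched. The search was for a library whose gap to the nearest other exceeds Dixon's 95% critical value of 0.829 of the group's range. Of 38 groups searched 3 held such a library. Chance gives about 1 in 20 only for independent groups of normally distributed values, which these are not. Some windows contain tiles that were also searched, and some levels lie at 0, so the count is not read against that rate. At common CpGs of bases 700001 to 800000, vehicle replicate 4 had a methylation level of 55.2%, with the other vehicle libraries at 69.3% to 72.1%. At bases 1798001 to 1799000, primary replicate 4 had 3.47% where the other primary libraries had 0%. At bases 11000001 to 11100000, primary replicate 4 had 27.4%, with the others at 38.9% to 39.9%.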

How the results depend on the processing

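The read share log2 ratio of the upper part to primary cells kept its direction in all alternatives run. With vehicle (0.51) it was 0.34 at common CpGs, 0.28 at CpGs with 20 or more reads in every library, 0.36 at CpGs listed in all MT2 libraries and 0.72 from the median window share. With 5aCdR (0.51) these were 0.47, 0.47, 0.46 and 0.61, and 0.54 at CpGs listed in all primary libraries. Leaving out each library gave 0.48 to 0.54 and 0.50 to 0.52. In the lower part the vehicle ratio was -0.18 with 20 reads and 0.0498 from the median window share, and the 5aCdR ratio -0.0862 at common CpGs and -0.12 with 20 reads, with leave-one-out ranges of -0.06 to -0.02 and -0.02 to 0.01. The step came at 6.05 Mb with 50 kb windows and 6.5 Mb at common CpGs.

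Between 5aCdR and vehicle, the read share difference of the upper part turned from -0.0015 to 0.13 at common CpGs and to 0.000300 at common CpGs without the deep tile, and was -0.0318 to 0.0251 with each library left out, above 0 without 5aCdR replicate 1 (0.0094), vehicle replicate 1 (0.0014) or vehicle replicate 3 (0.0251). Upper minus lower turned to 0.12 at common CpGs (-0.07 to -0.02 with libraries left out). Without single libraries the methylation change was -6.52 to -4.17 points in the lower part and -3.61 to -3.24 in the upper part, where fewer libraries cannot reach p below 0.05. The upper change at 20 reads was -3.67. The matched difference between the parts was -0.0841 to 2.49. Matched to the rest of the genome, the change was -2.72 to -0.522 in the lower part and -0.561 to -0.225 in the upper part. For vehicle against primary cells, leaving out each library gave 0.569 to 1.28 in the lower part, 1.44 to 1.90 in the upper part and -0.974 to -0.271 for their matched difference, and pooled reads gave -8.88 in the upper part and 20 reads -2.07 in the lower part, and the matched difference became 3.20 with 20 reads and 0.757 without matching. The cause of these changes was not tested beyond the values without the deep tile.

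The correlation of deviations was -0.0101 to 0.00389 between same-numbered 5aCdR and vehicle libraries and -0.0101 to 0.0167 between differently numbered ones. All lay near 0, so they gave no sign of pairing by replicate number and cannot show that it is absent. With the replicate block (smallest possible p 0.25) the methylation changes were -6.03 and -3.50 points, called tiles fell from 1 to 0 and called windows from 5 to 3. Called windows numbered 3 with 20 reads, 2 without the deepest CpGs, and 2 to 6 with each library left out, 2 when vehicle replicate 1 was omitted and 3 for either of 5aCdR replicates 2 and 3. Called tiles were 0 without the deepest CpGs and 0 to 1 with libraries left out. Called tiles of vehicle against primary cells (29) were 15 with 20 reads and 18 to 32 with libraries left out, the lowest being 18 when vehicle replicate 1 was omitted, then 19 for primary replicate 4.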
